A study of Mus musculus with 6 samples.

Results

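The class I peptide-loading genes are 9 genes that prepare the peptides shown to cytotoxic T cells, and all 9 were found by symbol among the 52550 Ensembl identifiers of the series. They are the peptide transporter genes Tap1 and Tap2, the tapasin genes Tapbp and Tapbpl, the trimming protease gene Erap1, the transactivator gene Nlrc5, and the endoplasmic reticulum (ER) chaperone genes Calr, Canx and Pdia3. The RNA came from colonic epithelial cells of male mice of the Apc Min/+ strain, which carry 1 truncated copy of the tumour suppressor gene Apc in every cell. The atorvastatin group (3 libraries) received 20 mg/kg of this statin by gavage, and the control group (3 libraries) received the vehicle, 2% Tween 80. Both groups were Apc Min/+, 5 to 6 weeks of age, and gavaged on alternate days. The labels number the libraries as replicates without saying whether each came from its own animal, so the p-values measure the spread between these libraries, which may be partly technical.

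As background, MHC class I molecules carry short peptides, made largely by the proteasome, to the cell surface. The TAP transporter, a heterodimer of the Tap1 and Tap2 products, pumps these peptides into the ER. There Erap1 trims them, tapasin (Tapbp) holds an empty class I molecule at the transporter until a fitting peptide binds, and the related protein of Tapbpl edits peptides away from the transporter. The lectins calnexin (Canx) and calreticulin (Calr) and the disulphide isomerase ERp57 (Pdia3) fold class I chains and also a large share of all glycoproteins of the cell. NLRC5 raises the transcription of class I genes together with factors bound at their promoters, and interferon gamma induces it. In this account Nlrc5, Tap1, Tap2, Tapbp, Tapbpl and Erap1 are grouped as interferon-inducible (6 genes), and Calr, Canx and Pdia3 as constitutive (3 genes). The division was made from textbook knowledge, but with earlier results of these data known, so it may not be independent of them.

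Promoter sequence was available for 6 of the 9 members (Tap1, Tapbp, Erap1, Calr, Canx and Pdia3) in the RefSeq annotation of the mouse assembly GRCm38.p6. Each window runs from 250 bases before to 30 bases after the annotated start. The 4 windows below are shown because Tap1 is a member that passed the test below, Erap1 alone held the interferon response motif, and Calr and Canx held the ER stress element. Capitals mark matches, on either strand, to 5 searched motifs: the gamma-activated site TTCNNNGAA, the interferon response motif (GAAA, any 2 bases, GAAA), the CCAAT box CCAAT, the CRE-like core TGACG, and the ER stress element (CCAAT, any 9 bases, CCACG), which contains a CCAAT box.
Tap1, chr17:34187306-34187585, plus strand: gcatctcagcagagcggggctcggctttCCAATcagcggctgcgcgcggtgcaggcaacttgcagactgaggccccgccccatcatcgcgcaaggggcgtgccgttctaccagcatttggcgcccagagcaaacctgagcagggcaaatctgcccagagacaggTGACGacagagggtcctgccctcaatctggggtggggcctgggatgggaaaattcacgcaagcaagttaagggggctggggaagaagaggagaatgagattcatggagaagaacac
Erap1, chr13:74639603-74639882, plus strand: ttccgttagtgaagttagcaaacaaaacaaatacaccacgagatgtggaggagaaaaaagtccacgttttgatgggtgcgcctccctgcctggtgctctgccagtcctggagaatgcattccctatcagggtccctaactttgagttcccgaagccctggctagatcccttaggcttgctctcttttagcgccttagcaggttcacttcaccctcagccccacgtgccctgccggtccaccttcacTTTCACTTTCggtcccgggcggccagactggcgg
Calr, chr8:84846902-84847181, minus strand: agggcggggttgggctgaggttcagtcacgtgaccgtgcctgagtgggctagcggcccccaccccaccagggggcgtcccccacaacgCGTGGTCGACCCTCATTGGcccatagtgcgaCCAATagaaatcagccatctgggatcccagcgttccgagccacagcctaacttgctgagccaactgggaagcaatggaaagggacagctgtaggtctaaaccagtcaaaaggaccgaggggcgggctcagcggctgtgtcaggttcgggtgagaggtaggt
Canx, chr11:50325644-50325923, minus strand: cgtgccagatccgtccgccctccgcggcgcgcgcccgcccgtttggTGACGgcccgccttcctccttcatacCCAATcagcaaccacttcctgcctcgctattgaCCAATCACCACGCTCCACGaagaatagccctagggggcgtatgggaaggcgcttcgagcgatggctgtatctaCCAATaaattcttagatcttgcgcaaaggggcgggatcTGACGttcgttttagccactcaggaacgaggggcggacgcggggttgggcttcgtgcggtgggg

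The ER stress element, a site known to drive chaperone genes when unfolded protein builds up, was matched in the Calr and Canx windows and in none of the other 4. It was found in 38 of 32817 windows of this length over all annotated starts (0.116%). Each window is printed in the direction of its gene. In Calr the element lay on the strand opposite to the printed one, at -162 to -144 from the start. In Canx it lay on the printed strand, at -145 to -127. The interferon response motif was matched in the Erap1 window alone, on the strand opposite to the printed one at -4 to 6, and in 3.27% of all windows. The gamma-activated site was matched in none of the 6 windows and in 7.83% of all windows. The Tap1 window held a CCAAT box at -222 and a CRE-like core at -86, which are common, with 36.1% and 19.9% of all windows holding them. The CCAAT box was matched in 5 of the 6 members' windows and the CRE-like core in 3 (Tap1, Canx and Pdia3). A match describes these letters and does not show that a factor binds.

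Values are given in FPKM (fragments per kilobase of gene, scaled to the mapped fragments of the library), a length-scaled unit that allows levels of different genes to be compared. Between 11456 and 11655 genes per library reached 1 FPKM, and summed FPKM per library was 407857 to 430832. The sequencing depth is unknown. Over tested genes, the correlation of log2 values between libraries (across genes, which are not independent) was 0.990 to 0.992 within atorvastatin, 0.989 to 0.990 within control and 0.984 to 0.989 between the groups. The epithelial label was borne out by its markers: the 11 epithelial markers, among them Epcam, Cdh1 and Krt8, summed to 9348 to 10740 FPKM in atorvastatin and 9733 to 10730 FPKM in control, and no marker of the list passed the test. The 9 fibroblast and endothelial markers were each under 1 FPKM in every library.

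The members spanned more than 2 orders of magnitude in level. Calr was highest at a mean of 234 FPKM over the 6 libraries, followed by Pdia3 (175 FPKM), Canx (90.7 FPKM), Tapbp (30.4 FPKM), Erap1 (12.8 FPKM), Tapbpl (10.6 FPKM), Tap2 (5.92 FPKM), Tap1 (4.24 FPKM) and Nlrc5 (1.56 FPKM). The constitutive chaperones thus stood above all 6 inducible members in every library. Over all 6 libraries the ranges of neighbours in this order were separate except for Erap1 (11.9 to 14.1 FPKM) and Tapbpl (9.74 to 12.1 FPKM), and for Tap2 (4.28 to 7.40 FPKM) and Tap1 (2.93 to 5.69 FPKM). Within each group of 3 libraries, Erap1 lay above Tapbpl and Tap2 above Tap1 with no overlap. Of all tested genes, 98.9% had a lower mean than Calr and 9.86% a lower mean than Nlrc5.

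With atorvastatin the transporter gene Tap1 fell, and no member rose. The transactivator gene Nlrc5 was also called lower, but it passed the filter of at least 1 FPKM in at least 3 libraries only through the control libraries. Its call is therefore given as a description and supports no count. With no filter neither Nlrc5 nor Tap1 was called (limma adjusted p = 0.136 and 0.160). Tap1 kept its call in 1 of 6 fits that left out a library. All 9 members passed the filter of 1 FPKM and were tested with limma on log2(FPKM + 1), with p-values adjusted by Benjamini-Hochberg over 11644 genes. A gene was called at an adjusted p under 0.05. Among the members Tap1 was called lower, as was Nlrc5 as a description only, 0 were called higher and 7 were not called. Over all tested genes 0.404% were called, 0.249% lower and 0.155% higher. At an unadjusted p under 0.05, Tap1, Tap2 and Tapbp were lower, and Nlrc5 as a description only. At that threshold 0 members were higher, and of all tested genes 4.27% were lower and 7.75% higher. Tap1 was of the inducible group, and 0 of the 3 constitutive members passed at an adjusted or unadjusted p under 0.05. Fold changes below are log2 values of atorvastatin over control on the log2(FPKM + 1) scale with their standard error, and this scale understates the change of low genes.

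**Figure D1:**
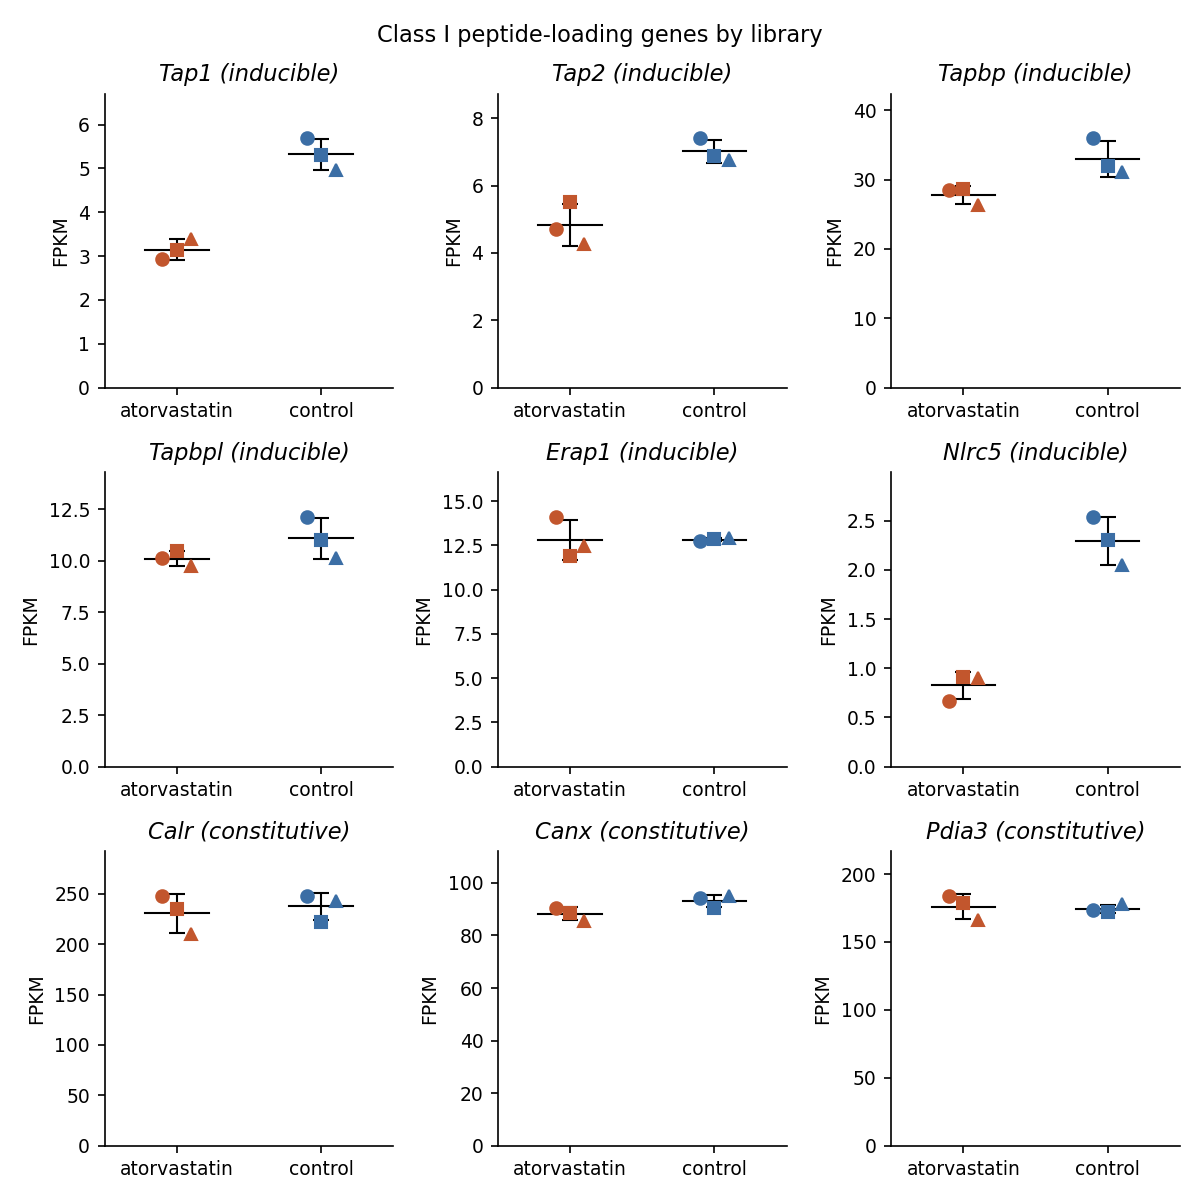
FPKM (vertical axes, from 0) of the 9 members in the 3 atorvastatin and 3 control libraries, with 1 point per library (circle, square and triangle for replicates 1, 2 and 3), the mean as a line and the SD as a bar. The groups are separate for Nlrc5, Tap1, Tap2 and Tapbp, and overlap for Tapbpl, Erap1, Calr, Canx and Pdia3.

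Nlrc5 (ENSMUSG00000074151, GRCm38 chromosome 8, 94434356 to 94527272, plus strand) had 0.664, 0.907 and 0.906 FPKM in the atorvastatin libraries, against 2.53, 2.30 and 2.05 FPKM in the control libraries. Every atorvastatin library lay below every control library, and the highest atorvastatin value was under the lowest control value by 1.14 FPKM. The means were 0.825 ± 0.140 FPKM in atorvastatin and 2.29 ± 0.24 FPKM in control (SD, n = 3 each), so that the atorvastatin mean was 36.0% of control. The fitted log2 fold change was -0.85 ± 0.09 (limma adjusted p = 0.0210), and -1.38 with a pseudocount of 0.1. Nlrc5 reached 1 FPKM in control libraries alone, so it was admitted to the test through the group where it was higher. With 1 library left out the call held without atorvastatin replicate 2 (limma adjusted p = 0.0379) and without control replicate 3 (0.0284), and was lost without atorvastatin replicates 1 and 3 (0.0584 and 0.0636) and without control replicates 1 and 2 (0.0783 and 0.0613). Over all alternatives its adjusted p ran from 0.0137 to 0.144.

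Tap1 (ENSMUSG00000037321, chromosome 17, 34187553 to 34197225, plus strand), which encodes one chain of the transporter, had 2.93, 3.13 and 3.39 FPKM in atorvastatin, against 5.69, 5.32 and 4.97 FPKM in control. The groups did not overlap, and the atorvastatin mean was 59.1% of control. The log2 fold change was -0.61 ± 0.07 (limma adjusted p = 0.0239). The call held without control replicate 3 (limma adjusted p = 0.0329) and was lost without atorvastatin replicates 1, 2 and 3 (0.0823, 0.0546 and 0.0636) and without control replicates 1 and 2 (0.0872 and 0.0688). Over all alternatives its adjusted p ran from 0.0171 to 0.160. The exons of Tap1 share 212 bases (3.87% of its exon bases) with the immunoproteasome gene Psmb9 on the opposite strand, and without a stated strand setting reads in that stretch cannot be told apart.

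Tap2 (ENSMUSG00000024339, chromosome 17, 34203527 to 34216321, plus strand), the partner chain, had 4.71, 5.51 and 4.28 FPKM in atorvastatin, against 7.40, 6.88 and 6.77 FPKM in control. The groups did not overlap. The log2 fold change was -0.46 ± 0.09 and did not pass over all genes (limma adjusted p = 0.0841, unadjusted p = 0.000881); it passed without atorvastatin replicate 2 (adjusted p = 0.0478), and over all alternatives ran from 0.0478 to 0.308. The ratio of Tap1 to Tap2, whose products pair one to one, was 0.621, 0.569 and 0.792 in the atorvastatin libraries, against 0.768, 0.773 and 0.734 in the control libraries, and these ranges overlapped. The summed level of both chains was 7.63 to 8.64 FPKM in atorvastatin and 11.7 to 13.1 FPKM in control.

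The tapasins differed less. Tapbp (ENSMUSG00000024308, chromosome 17, 33915899 to 33929292, plus strand) had 28.4, 28.6 and 26.3 FPKM in atorvastatin, against 35.9, 31.9 and 31.1 FPKM in control, with no overlap and an atorvastatin mean at 84.2% of control. Its log2 fold change of -0.24 ± 0.07 did not pass (limma adjusted p = 0.234). Its exons share 149 bases with those of Zbtb22 on the same strand, at 8.16 to 9.77 FPKM in atorvastatin and 7.66 to 9.20 FPKM in control. Tapbpl (ENSMUSG00000038213, chromosome 6, 125223933 to 125231860, minus strand) had 10.1, 10.5 and 9.74 FPKM in atorvastatin, against 12.1, 11.01 and 10.2 FPKM in control. Its groups overlapped, since control replicate 3 lay below atorvastatin replicate 2, and the log2 fold change was -0.12 ± 0.07 (limma adjusted p = 0.567).

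Erap1 (ENSMUSG00000021583, chromosome 13, 74639568 to 74693201, plus strand), the aminopeptidase that trims peptides in the ER and the member with the interferon response motif in its window, had 14.1, 11.9 and 12.5 FPKM in atorvastatin, against 12.7, 12.9 and 12.9 FPKM in control. All control values lay within the atorvastatin range. The log2 fold change was -0.005 ± 0.067 (limma adjusted p = 0.986), with a 95% interval of -0.16 to 0.15. Erap1 shares 834 exon bases (11.5% of its own) with Cast on the opposite strand, which was at 15.01 to 16.0 FPKM in atorvastatin and 14.9 to 16.8 FPKM in control.

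The constitutive chaperones did not pass. Calr (ENSMUSG00000003814, chromosome 8, 84841850 to 84846934, minus strand) had 247, 235 and 209.8 FPKM in atorvastatin, against 247, 222 and 243 FPKM in control, and a fitted change of -0.04 ± 0.08 (limma adjusted p = 0.884). Canx (ENSMUSG00000020368, chromosome 11, 50293961 to 50325673, minus strand) had 90.5, 88.5 and 85.6 FPKM in atorvastatin, against 94.1, 90.4 and 94.9 FPKM in control, and a fitted change of -0.08 ± 0.05 (limma adjusted p = 0.621). The groups of both genes overlapped, in Canx only through atorvastatin replicate 1 and control replicate 2. Pdia3 (ENSMUSG00000027248, chromosome 2, 121413775 to 121438687, plus strand) had 184, 178 and 166 FPKM in atorvastatin, against 173, 172 and 178 FPKM in control, and a fitted change of 0.01 ± 0.06 (limma adjusted p = 0.954). A missed threshold does not show equal levels: the 95% intervals ran from -0.23 to 0.14 for Calr, -0.20 to 0.04 for Canx and -0.12 to 0.15 for Pdia3, so changes of up to about these sizes are within the error.

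Set side by side, the 6 inducible members, Nlrc5 included, had a median log2 fold change of -0.35 and ran from -0.85 to -0.005. Without Nlrc5, which was admitted through the control group, they ran from -0.61 (Tap1) to -0.005 (Erap1), with Tapbp (-0.24) in the middle. The 3 constitutive members had a median of -0.04 and ran from -0.08 to 0.01. The median over all tested genes was 0.02. With a filter of 5 FPKM, which removes Nlrc5 and Tap1, the inducible median was -0.18. Groups did not overlap, with atorvastatin lower, in Tap1, Tap2 and Tapbp, in Nlrc5 as a description only, and in 0 of 3 constitutive members. This was so for 6.05% of all tested genes, while 12.0% lay apart with atorvastatin higher and 18.1% in either direction. The mean log2 value of the inducible members minus that of the constitutive members was taken in each library. It was -4.42, -4.32 and -4.28 in the atorvastatin libraries and -3.94, -3.95 and -4.09 in the control libraries. Nlrc5 is part of these means, so they partly reflect a gene admitted through the control group. No test was made of this difference between classes. The 95% interval was -1.06 to -0.64 for Nlrc5 and -0.16 to 0.15 for Erap1, the ends of the inducible range.

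**Figure D2:**
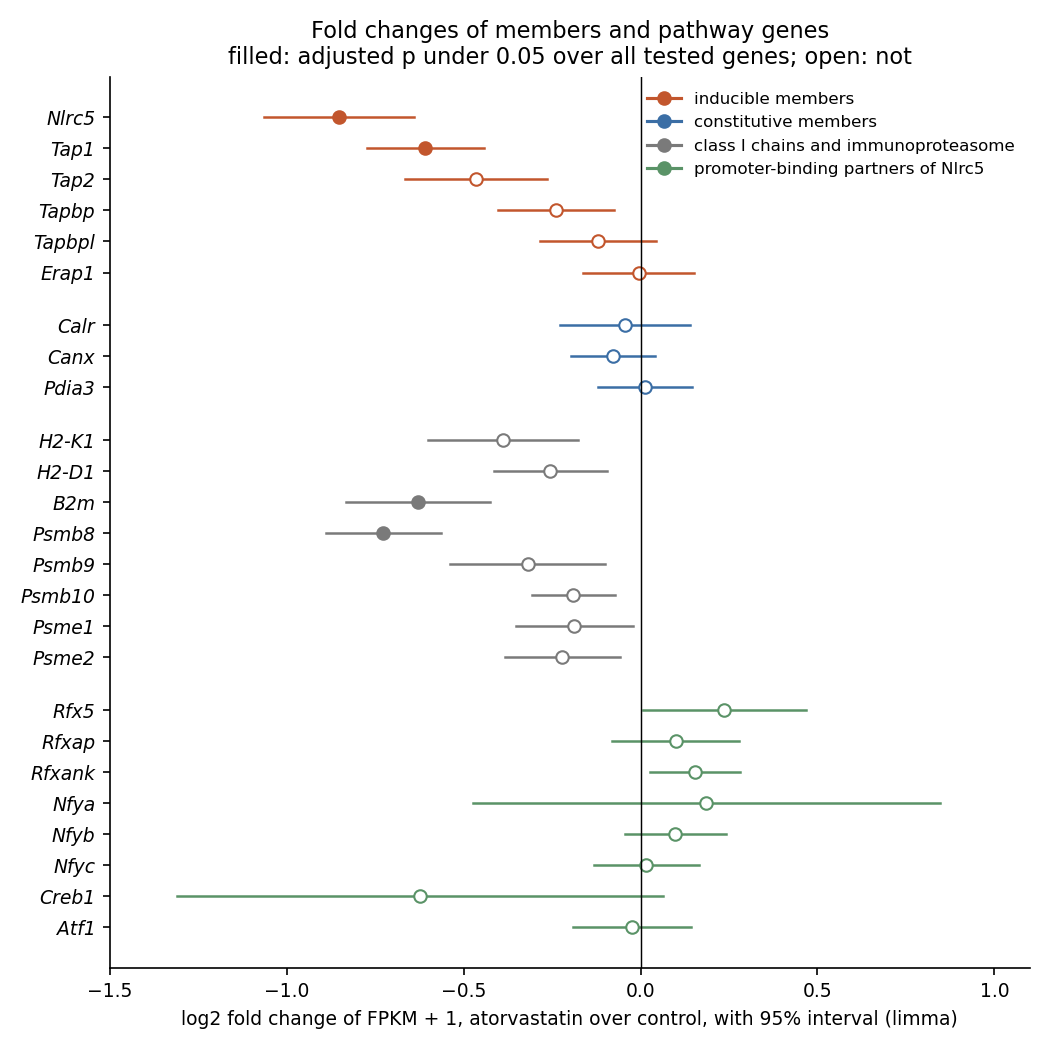
Log2 fold change of FPKM + 1, atorvastatin over control (horizontal axis), with the 95% interval from limma as a bar, for the 6 inducible and 3 constitutive members, 8 class I chain and immunoproteasome genes and 8 promoter-binding genes. Filled points passed at an adjusted p under 0.05: Nlrc5 (as a description only), Tap1, B2m and Psmb8. The inducible members are ordered by their fold change, from Nlrc5 to Erap1 at 0.

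The genes that make class I molecules and their peptides had negative fitted changes, most of which did not pass. Of 8 class I chain and immunoproteasome genes tested, 2 were called lower, 0 higher and 6 were not called. Over all tested genes 0.249% were called lower and 0.155% higher. The median log2 fold change of the 8 was -0.29. In all 8 each atorvastatin library lay below each control library, as in 6.05% of all tested genes. B2m, the invariant light chain of class I, had 274, 254 and 254 FPKM in atorvastatin, against 420, 438 and 356 FPKM in control (-0.63 ± 0.09 on the log2 scale, limma adjusted p = 0.0428). The B2m call held without control replicate 3 (limma adjusted p = 0.0208) and was lost without any other single library (0.0926 to 0.164), within a range of 0.0199 to 0.231 over all alternatives. Psmb8, a catalytic subunit of the immunoproteasome, fell to 56.6% of control (limma adjusted p = 0.0184), a call lost without control replicate 1 (0.0753) and ranging from 0.00933 to 0.136 over all alternatives. Psmb9, the head-to-head neighbour of Tap1, had 2.29, 1.87 and 2.31 FPKM in atorvastatin, against 3.21, 2.54 and 3.06 FPKM in control (adjusted p = 0.237), and the immunoproteasome gene Psmb10 was at 28.5 and 32.6 FPKM on average in atorvastatin and control (0.198). The class I heavy chain genes H2-K1 and H2-D1 averaged 76.1% and 83.6% of control (limma adjusted p = 0.148 and 0.198); they belong to a family of near-identical genes, so their single values are uncertain.

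None of the DNA-binding partners of NLRC5 passed the test. Of the 8 tested genes of the list, which covers the RFX subunits, NF-Y subunits, Creb1 and Atf1, 0 were called by limma at an adjusted p under 0.05. Over all tested genes 0.404% were called, so 0 calls among 8 genes do not set them apart. At an unadjusted p under 0.05, 2 were higher and 0 lower, and of all tested genes 7.75% were higher and 4.27% lower. In the list 2 had a negative and 6 a positive fold change, and the median was 0.10. Rfx5, the DNA-binding RFX subunit, had 3.30, 3.56 and 3.05 FPKM in atorvastatin, against 2.36, 3.18 and 2.45 FPKM in control (limma adjusted p = 0.403, unadjusted p = 0.0453). Rfxank, another RFX subunit, averaged 8.27 and 7.34 FPKM in atorvastatin and control (adjusted p = 0.331). Creb1 was uneven among replicates, at 1.07, 1.34 and 3.56 FPKM in atorvastatin against 3.67, 3.14 and 3.17 FPKM in control, so that its call (adjusted p = 0.460) turned on atorvastatin replicate 3, without which it was 0.0390, and ran from 0.0386 to 0.733 over all alternatives. Ciita, the class II relative of Nlrc5, was too low to test, at 0.107, 0.117 and 0.262 FPKM in atorvastatin and 0.341, 0.301 and 0.238 FPKM in control.

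Of the interferon signalling genes described here, Irf9, a DNA-binding factor activated by interferon, fell. It had 6.33, 7.57 and 6.80 FPKM in atorvastatin, against 10.4, 10.7 and 10.04 FPKM in control, with no overlap and an atorvastatin mean at 66.3% of control (limma adjusted p = 0.0334). Its call held without atorvastatin replicate 2 (0.0312) and was lost without any other single library (0.0558 to 0.148), within a range of 0.0242 to 0.203 over all alternatives. Stat2, which binds the Irf9 protein, averaged 65.5% of control and did not pass (limma adjusted p = 0.258), and neither did Irf1, a direct activator of class I pathway genes, at 30.6 ± 0.7 FPKM in atorvastatin and 34.4 ± 3.2 FPKM in control (0.441). The receptor genes Ifngr1 and Ifngr2 did not pass either, with log2 fold changes of -0.07 and -0.04.

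No gene of the wider chaperone and peptidase lists passed. Over all tested genes 0.404% were called, so 0 calls in lists this short do not set them apart. At an unadjusted limma p under 0.05, 4.27% of all tested genes were lower and 7.75% higher. Of 14 other ER chaperones, disulphide isomerases and glycan checkpoint enzymes, 0 were called by limma at an adjusted and 0 at an unadjusted p under 0.05, with 9 negative and 5 positive fold changes from -0.17 to 0.08 and a median of -0.02. Hspa5, the main chaperone of the unfolded protein response, had 276, 236 and 229 FPKM in atorvastatin, against 262, 267 and 291 FPKM in control (limma adjusted p = 0.553). Dnajb11, its cochaperone, and Ero1l, an oxidase that serves disulphide isomerases, averaged 91.4% and 93.2% of control and did not pass (0.547 and 0.509). Of 7 cytosolic and other peptidases, which also shape the peptide pool, 0 were called by limma at an adjusted and 0 at an unadjusted p under 0.05, with 3 negative and 4 positive fold changes. Among them the interferon-inducible aminopeptidase gene Lap3 averaged 20.1 and 21.9 FPKM in atorvastatin and control (0.552), Nrd1 averaged 18.0 and 16.9 FPKM (0.598) and Blmh 7.62 and 7.27 FPKM (0.731).

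Levels across the 6 libraries were used to find the genes whose profile was most like that of a member, among 6244 named genes whose mean reached 5 FPKM. Likeness was the mean absolute difference per library between log2(FPKM + 1) profiles, each centred on its own mean, and it describes these 6 libraries with no test. Closest to Tap1 were Irf9 (0.060), Irf7 (0.061) and Psmb8 (0.062). Closest to Nlrc5 were Rcbtb1 (0.056), Qdpr (0.069) and the class I gene H2-Q6 (0.071). Their atorvastatin means were 54.6%, 56.4% and 50.7% of control, against 36.0% for Nlrc5. The log2(FPKM + 1) scale understates the change of a gene as low as Nlrc5, so these matches depend partly on that scale. Closest to Calr were Carm1 (0.012), Cd151 (0.017) and Cgn (0.019). In bulk RNA, fewer cells of a type and less RNA per cell cannot be told apart, and all of these profiles share the same libraries.

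Leukocytes also express Nlrc5 and the TAP genes, and the summed levels of their markers were lower in atorvastatin. For each leukocyte list summed below, every atorvastatin library lay under every control library. For the T and NK list the nearest libraries were all but equal (18.931 FPKM in atorvastatin against 18.933 FPKM in control). The 14 T and NK cell markers, of which 7 could be tested, summed to 13.4, 15.7 and 18.9 FPKM in atorvastatin and to 34.5, 33.2 and 18.9 FPKM in control. All 7 tested markers had negative fold changes and 0 were called by limma (smallest adjusted p = 0.139). At an unadjusted p under 0.05, 6 were lower, as were 4.27% of all tested genes. The pan-leukocyte gene Ptprc (CD45) had 0.688, 0.824 and 1.17 FPKM in atorvastatin, against 1.81, 1.98 and 1.15 FPKM in control. The 8 B and plasma cell markers summed to 2.58 to 3.35 FPKM in atorvastatin and 5.13 to 11.5 FPKM in control, the 10 macrophage and dendritic cell markers to 3.62 to 4.54 and 4.89 to 10.4 FPKM, and the 5 mast cell markers to 8.24 to 10.1 and 13.1 to 25.1 FPKM. Of the mast cell markers, Mcpt1 averaged 1.38 FPKM in atorvastatin and 8.65 FPKM in control, and Mcpt2 0.663 and 4.43 FPKM. Kit, which is part of the same sum, averaged 7.16 and 7.15 FPKM. These 3 mast cell markers were tested and 0 were called by limma (smallest adjusted p = 0.0720). Cpa3 and Fcer1a, at only 0.189 and 0.0526 FPKM on average in control, were listed at 0 in all 3 atorvastatin libraries. No other leukocyte marker was at 0 throughout a group. The mitochondrial ribosomal RNA mt-Rnr1 was at 1195, 1160 and 1526 FPKM in atorvastatin against 2156, 2631 and 1828 FPKM in control. The part of these markers and of mt-Rnr1 in the lower Nlrc5 and Tap1 values was not tested.

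**Figure D3:**
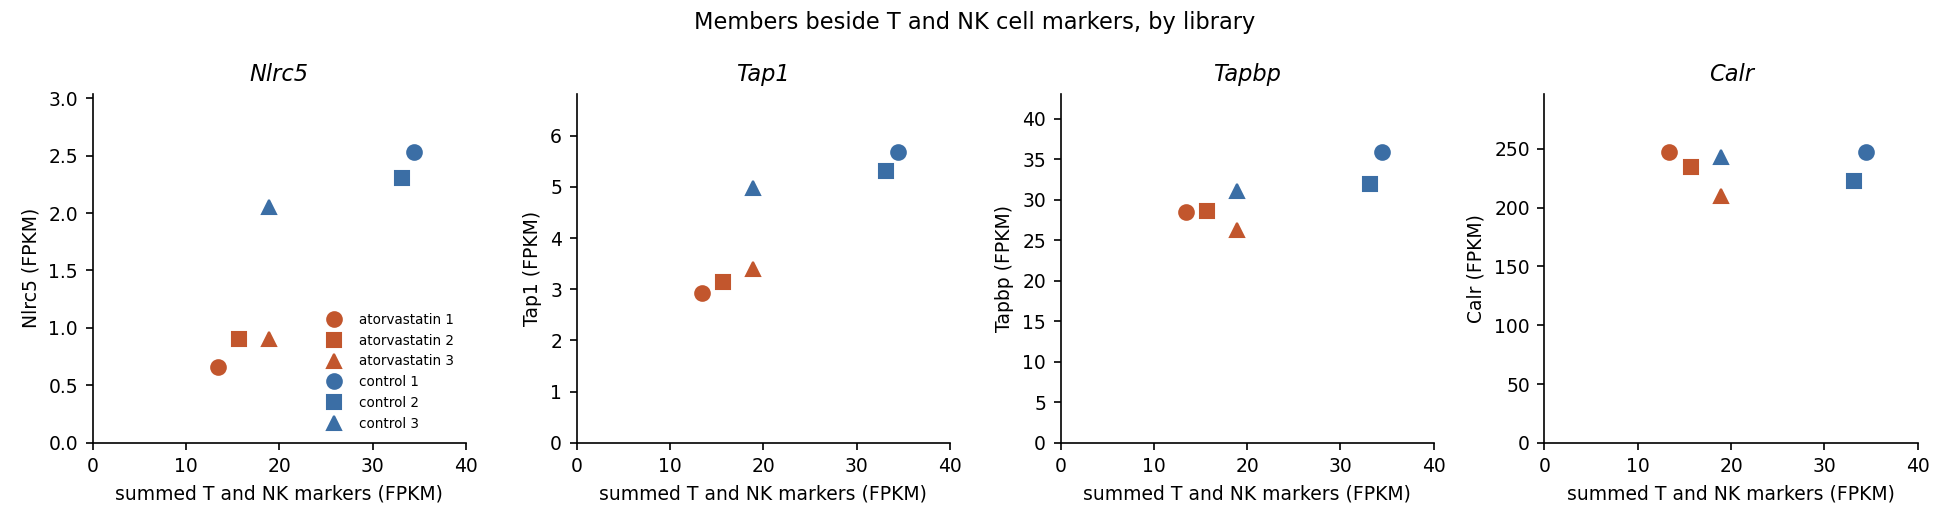
FPKM of Nlrc5, Tap1, Tapbp and Calr (vertical axes, from 0) against the summed FPKM of 14 T and NK cell markers (horizontal axis), with 1 point per library. The marker sums are 13.4 to 18.9 FPKM in atorvastatin and 18.9 to 34.5 FPKM in control, and Nlrc5, Tap1 and Tapbp are lower in every atorvastatin library than in every control library.

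The processing settings moved the calls of single members more than their direction. Apart from fits that left out a library, Tap1 passed in 8 of 10 settings in which it could be tested, and Tap2 in 0 of 11. Nlrc5 also passed in 8 of 10. This is a description only, since it passed the filter through the control libraries. Nlrc5 and Tap1 lost the call with no filter on low values (limma adjusted p = 0.136 and 0.160), where many more genes are tested, and in the fit with the replicate number as a block. Their log2 fold changes were negative under every setting, between -1.38 and -0.32 for Nlrc5 and between -0.74 and -0.34 for Tap1. Over all members and settings, the direction turned only for Erap1, Calr and Pdia3, whose changes were near 0.

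**Figure D4:**
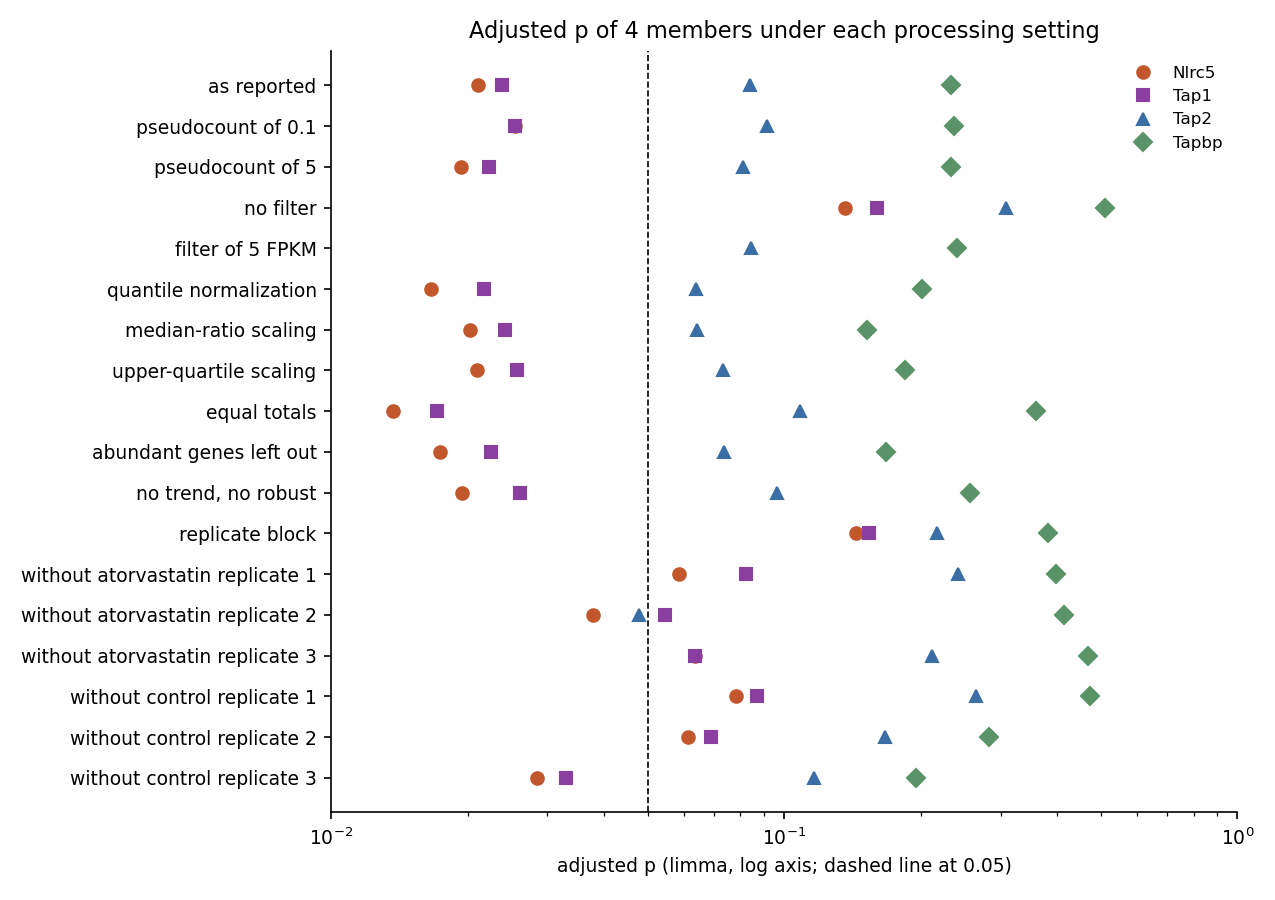
Adjusted p from limma (horizontal log axis, dashed line at 0.05) of Nlrc5, Tap1, Tap2 and Tapbp under each processing setting (rows); fits without a library keep the genes tested over 6 libraries. Nlrc5 and Tap1 lie at 0.0137 to 0.0261 in 9 rows, and right of the line with no filter, with the replicate block and without most single libraries; neither was tested with a filter of 5 FPKM.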

How the data were processed

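The deposited values were FPKM per gene and library, a unit read from the values, since they were not whole and their totals differed between libraries. FastQC 0.11.2, Bowtie and the mm10 build are named per the submitters' processing notes; which tool quantified the genes, with what annotation and strand option, is not given in the sources used here. Among genes within a set range of lengths, the commonest non-zero product of value and length in kilobases was 0.024 to 0.027 in each library. It was held by 495 to 547 genes per library, as length-scaled values would give. No read totals were recovered, so no count test or counting interval was used. Precision is known only from the spread of 3 libraries per group.

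Gene symbols were found for 99.7% of identifiers (2 list genes matched by a synonym), and coordinates were taken from GENCODE M21 on GRCm38, which mm10 denotes. The filter kept 11644 genes that reached 1 FPKM in 3 or more of the 6 libraries, and log2(FPKM + 1) was fitted with limma 3.58.1 in R 4.3.3 (trended, robust, two-sided, Benjamini-Hochberg), atorvastatin against control without covariates. The fit was tested on simulated data. Other pseudocounts, filters, scalings, fits, the replicate block and the omission of each library were tried (17 settings), and 6 more settings, which omit each library but keep the genes tested over all 6, were chosen after seeing the data. A count model was to be used had the files held counts; they hold FPKM. Genes named are the 9 members, 10 fixed pathway genes, up to 3 genes with the smallest p per list, and 3 genes most like each of Tap1, Nlrc5 and Calr; a few overlapping genes and markers were added after their values were seen. The result of 1 of these pathway genes, and the counts of the list that holds it, are not reported here. The members and lists were chosen with earlier results of these data known. Same-numbered libraries of the groups did not deviate together (correlations of -0.139, -0.106 and 0.0136), so the numbers were not taken as pairs.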

Additional observations from a re-analysis of the deposited data

How the results depend on the processing

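The count of 47 called genes was 2 with no filter, 1 with the replicate block, and 2 to 67 with 1 library left out. With the genes tested over 6 libraries kept, it was 13 and 18 without atorvastatin replicates 1 and 3, and 7, 30 and 72 without control replicates 1, 2 and 3. The called members were Tap1 and, as a description only, Nlrc5. Their count of 2 was 0 with no filter, with a filter of 5 FPKM (which removes both) and with the replicate block. With 1 library left out it was 0 to 2. The median of the inducible members was -0.35 with Nlrc5 included. It was -0.25 with a pseudocount of 5 and -0.18 with a filter of 5 FPKM. With 1 library left out it ran from -0.40 to -0.18, where Nlrc5 is not tested without a control library. The median of the constitutive members ran from -0.096 to 0.022 with 1 library left out. The log2 fold change of Pdia3 turned to -0.042 with quantile normalization, -0.010 with median-ratio scaling and -0.0058 with abundant genes left out. With 1 library left out it ran from -0.018 to 0.053 in Pdia3, -0.070 to 0.043 in Erap1, -0.096 to 0.022 in Calr, -0.078 to 0.019 in Carm1 and -0.092 to 0.0054 in Cd151. Pdia3 turned without atorvastatin replicate 1, Erap1 without atorvastatin replicate 2 (0.043) or 3 (0.012), and Calr, Carm1 and Cd151 without atorvastatin replicate 3. The cause of these shifts was not tested. With the replicate block Nlrc5 and Tap1 had adjusted p of 0.144 and 0.154; the numbers are not known to pair the libraries. FPKM carries no depth, so the precision of low genes such as Nlrc5 rests on 3 libraries per group.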
